A study of Rattus norvegicus with 12 samples.

Results

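The glucose response that remained in ChREBPβ cells was measured by comparing 3 libraries from INS-1 832/13 cells given an adenovirus expressing mCherry-tagged ChREBPβ and kept at 11 mM glucose with 3 libraries from such cells kept at 2 mM. These are 6 of the 12 libraries of the series. INS-1 832/13 is a rat insulinoma line that secretes insulin, and RNA was taken after 48 h at each glucose concentration. The other 6 libraries, 3 at 2 mM and 3 at 11 mM, came from the same line given an adenovirus expressing GFP, and they supplied the glucose response of control cells. All 12 libraries therefore came from cells that had received a virus, and no group was left without one. Replicates are labelled a to c, and the study describes the plotted values as averages over independent experiments. The virus carried the mouse ChREBPβ sequence, so the comparison concerns forced expression from a vector in 1 clonal tumour line, and not the cell's own isoform.

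ChREBP, encoded by Mlxipl, is a glucose-responsive transcription factor that binds carbohydrate response elements as a heterodimer with Mlx and turns on glycolytic and lipogenic genes. ChREBPα carries an N-terminal domain that holds it inactive at low glucose. ChREBPβ, transcribed from an alternative promoter that ChREBPα itself activates, lacks that domain and is active with little regard to glucose. Supplying ChREBPβ from a virus therefore poses a simple question, namely which effects of raising glucose are still measurable once this factor is present at both glucose concentrations.

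Library totals were 28595982, 57726412 and 57313995 counts for replicates a, b and c of ChREBPβ at 2 mM, and 60531215, 59249045 and 57088794 at 11 mM. Replicate a at 2 mM was thus the shallowest of the 6. Those of the GFP libraries ran from 25754488 to 46654823. The beta-cell markers were present in every library, with Ins1 between 3464 and 4365 CPM (counts relative to the TMM-scaled library total) in the ChREBPβ libraries. Gcg, the glucagon gene, was also read there at 429 to 502 CPM. The 14 markers of acinar, ductal, endothelial, immune and stromal cells found in the table summed to between 9.78 and 11.6 CPM in the 2 mM libraries and between 10.3 and 12.1 CPM at 11 mM. Sox9 made up most of that sum, and Prss1, Cftr and Ptprc were at 0 in all 6. In bulk RNA, a change in the number of cells and a change in RNA per cell cannot be told apart.

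The rows for the targeted gene did not show the vector. Mlxipl was read at 203, 212 and 199 CPM at 2 mM and 201, 181 and 183 CPM at 11 mM with ChREBPβ, against 240.3, 252 and 277 CPM and 202, 212 and 207 CPM with GFP. A separate row named ChREBPb stood at 90.7, 89.6 and 90.1 CPM and then 98.2, 84.3 and 81.4 CPM with ChREBPβ, and at 64.7 to 82.2 CPM with GFP. How reads of the mouse sequence were treated is not given in the sources used here, so these rows check no label. Between 11 and 2 mM with ChREBPβ, Mlxipl gave a log2 change of -0.12 ± 0.05 (SE, edgeR adjusted p = 0.177) and ChREBPb one of -0.03 ± 0.06 (edgeR adjusted p = 0.824). The sign of the ChREBPb value turned to 0.02 without ChREBPβ 11 mM replicate c. Neither row changed detectably with glucose in these cells. The best-known ChREBP target, Txnip, stood at 448 to 472 CPM at 2 mM with ChREBPβ and at 24.3 to 27.7 CPM at 2 mM with GFP.

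Raising glucose changed 567 of 14669 tested genes in ChREBPβ cells (3.87% of those tested), where a change means an edgeR adjusted p under 0.05 and at least 1.2-fold. Most were lower. Glucose raised 145 genes (0.988%) and lowered 422 (2.88%). The same rule called 2963 genes in GFP cells (20.2%), split into 1491 higher (10.2%) and 1472 lower (10%). The remaining changes were small, with a median size of 0.382 on the log2 scale among the 567, beside a median standard error of 0.0717 over all genes. The 3 libraries of one glucose concentration lay wholly above or below the 3 of the other in 564 of the 567, and in 28.9% of all tested genes. A further 533 genes had an adjusted p under 0.05 but a change below the fold minimum. A change of 2-fold or more was called for 28 genes (0.191%). Of these, 25 averaged under 5 CPM over the 6 libraries, and 3 had no library with over 3 counts in 1 of the groups, so no fold is given for those 3. Without ChREBPβ 2 mM replicate c the total was 392 genes and the number higher was 93. It was 424 without replicate a of the same group.

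Most of the residual response lay within the control response. Of the 567 genes, 425 also changed in the same direction in GFP cells, which is 75% of the ChREBPβ list and 14.3% of the GFP list. Among genes raised with ChREBPβ, 90 were raised with GFP (62.1% of the former, 6.04% of the latter), and among genes lowered, 335 were lowered with GFP (79.4% and 22.8%). No library is shared between the 2 comparisons. For 52 of the 425 genes the difference between the glucose effects itself passed the edgeR test, and the change was the smaller one with ChREBPβ in all 52. Leaving out ChREBPβ 2 mM replicate c gave 307 shared genes, and 32 of those had a called difference. Between 71.1% and 78.3% of the ChREBPβ calls were shared when any 1 of the 12 libraries was left out. The test of the difference called 925 genes over the whole table (6.31%), 229 more positive and 696 more negative with ChREBPβ (1.56% and 4.74%).

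**Figure D1:**
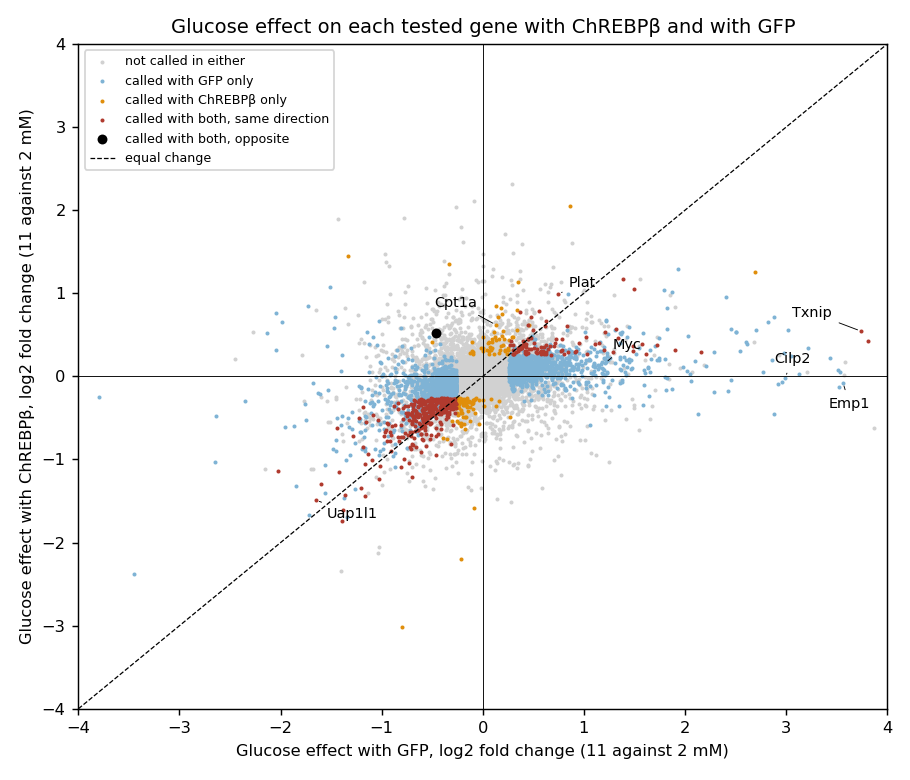
Each point is 1 of the 14669 tested genes, with the log2 change from 2 to 11 mM glucose for GFP on the horizontal axis and for ChREBPβ on the vertical axis (11 genes lie outside the axes). Lower genes called in both (lower left) lie near the line of equal change, while many genes raised with GFP lie along the zero line for ChREBPβ.

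Seen from the control side, the median induction was reduced further than the median repression. The 1491 genes raised with GFP had a median log2 change of 0.415 there and 0.105 with ChREBPβ, and the 1472 lowered genes had -0.439 and -0.2. The median over all tested genes was 0.00303 with ChREBPβ. Signs were largely kept, with 86% of the raised and 90.4% of the lowered genes moving the same way with ChREBPβ. A called difference opposed to the GFP change was found for 646 of the raised and 186 of the lowered genes. The latter number was 107 without GFP 11 mM replicate c, 108 without ChREBPβ 2 mM replicate b, 114 without ChREBPβ 2 mM replicate c and 123 without GFP 2 mM replicate c. A called difference in the direction of the GFP change was found for 0 of either. These genes were chosen by their GFP change, and the difference subtracts that same change. The choice thus in part fixes these counts and medians. Chosen by the ChREBPβ call instead, the 145 raised genes had medians of 0.364 with ChREBPβ and 0.418 with GFP. The 422 lowered genes had -0.388 and -0.466. Across all tested genes, which are not independent replicates, the log2 changes of the pair of comparisons had a Pearson r of 0.358 and a Spearman rho of 0.474.

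Among genes raised in ChREBPβ cells, the largest increase at 5 CPM or more was that of Plat, tissue plasminogen activator. Plat stood at 4.51, 6.04 and 4.78 CPM at 2 mM and 10.6, 9.72 and 10.5 CPM at 11 mM. The groups did not overlap, and the log2 change was 0.99 ± 0.10 (SE, edgeR adjusted p = 5.3e-06), against 0.75 ± 0.12 with GFP. Trpc4, a calcium-permeable cation channel, went from 9.09, 9.77 and 8.70 CPM to 15.7, 13.6 and 13.0 CPM, a log2 change of 0.62 ± 0.08 (edgeR adjusted p = 5.68e-05). With GFP its change was 0.45 ± 0.08. The difference was not called for either gene.

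Ccnd1, the cyclin that drives cells out of G1, was read at a wholly different level in the 2 kinds of cells. It stood at 86.6, 101 and 92.4 CPM at 2 mM with ChREBPβ and at 122, 133 and 135 CPM at 11 mM, while all 6 GFP libraries lay between 1.36 and 2.35 CPM. Glucose raised it by 0.47 ± 0.06 on the log2 scale with ChREBPβ (edgeR adjusted p = 7.04e-05). Its fitted change with GFP was 0.28 ± 0.17 (edgeR adjusted p = 0.211), and the difference of 0.19 was not called. The cell-cycle inhibitor Cdkn1a was raised as well, from 116, 118 and 119.6 CPM to 155, 166 and 167 CPM, a log2 change of 0.47 ± 0.04 (edgeR adjusted p = 1.56e-06). In GFP cells Cdkn1a rose by 0.48 ± 0.05 from a lower level, 49.2 to 50.2 CPM, so the proportional effect of glucose was nearly the same in both backgrounds (difference -0.01 ± 0.06).

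The other genes with large increases were Ak4 (a mitochondrial adenylate kinase), Arl4d, Hsd11b2 (an enzyme that inactivates glucocorticoids), Rgcc, Arrdc3 (an arrestin-domain protein), Mid1, Ddit4 and Mdfic. Arl4d, a small GTPase, rose from 45.0, 46.0 and 47.1 CPM to 61.6, 70.4 and 72.6 CPM (log2 change 0.57 ± 0.06). Its change with GFP was 1.32 ± 0.08 from 6.35 to 6.91 CPM, and the difference of -0.75 was called (edgeR adjusted p = 6.46e-05). Mid1, a microtubule-associated ubiquitin ligase, rose by 0.48 ± 0.08 with ChREBPβ and by 1.02 ± 0.08 with GFP, again with a called difference of -0.54 (edgeR adjusted p = 0.00532). Ddit4, an inhibitor of mTORC1 signalling, rose by 0.48 ± 0.09 (edgeR adjusted p = 0.00238) and gave 0.12 ± 0.10 with GFP, and the difference of 0.36 was not called (edgeR adjusted p = 0.121). Some of these calls rested on single libraries. Ak4 (0.48 without ChREBPβ 11 mM replicate c, 0.59 without 2 mM replicate c) and Hsd11b2 (0.49 without 11 mM replicate c) were no longer called then. Arrdc3 (0.39 to 0.47) lost its call without replicates a or c at 2 mM or b or c at 11 mM, Rgcc (0.49 to 0.54) without b or c of either group, and Mdfic (0.41 to 0.44) without b or c at 2 mM or a or c at 11 mM. C2cd4a and Gcnt3, which also rose in both backgrounds, changed by 0.45 each with ChREBPβ. Gcnt3 (0.42 to 0.46) lost its call without any of replicates a or c at 2 mM and a or b at 11 mM.

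**Figure D2:**
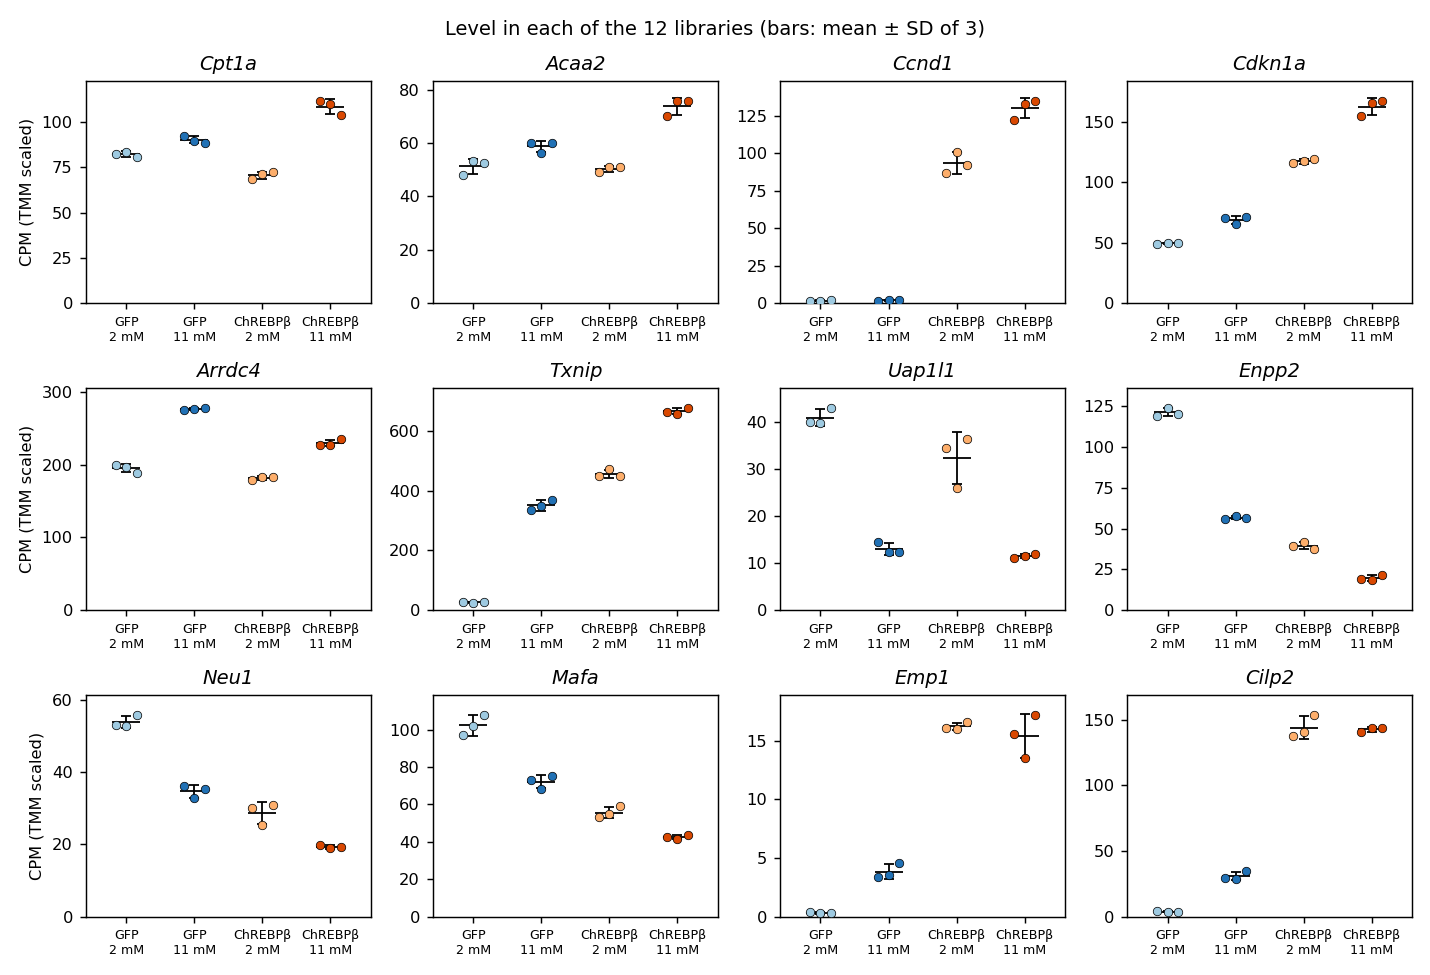
Expression of 12 genes in all 12 libraries in CPM, with each library as a point and the mean and SD of each group of 3 as bars. Cpt1a and Acaa2 separate by glucose mainly with ChREBPβ, Uap1l1, Enpp2, Neu1 and Mafa are lower at 11 mM with either virus, and Emp1 and Cilp2 differ by glucose with GFP and not with ChREBPβ.

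Several genes of fatty acid oxidation responded more to glucose with ChREBPβ than with GFP. Cpt1a, the carnitine palmitoyltransferase that admits long-chain fatty acids to mitochondria, stood at 68.4, 71.0 and 72.1 CPM at 2 mM and at 111, 110.0 and 104 CPM at 11 mM. Its log2 change was 0.62 ± 0.04 (edgeR adjusted p = 3.9e-08). With GFP it moved from 80.9 to 83.7 CPM up to 88.5 to 92.4 CPM, a log2 change of 0.13 ± 0.04 below the fold minimum. The difference of 0.49 ± 0.06 was called (edgeR adjusted p = 2.85e-05).

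Acaa2, the mitochondrial thiolase of the last step of beta-oxidation, followed the same pattern. It was read at 49.2, 51.0 and 51.0 CPM at 2 mM and 70.2, 75.6 and 75.7 CPM at 11 mM with ChREBPβ, a log2 change of 0.55 ± 0.05 (edgeR adjusted p = 1.12e-06). With GFP it also rose, by 0.20 ± 0.05 (edgeR adjusted p = 0.00588), which is below the fold minimum. The difference from GFP was 0.35 ± 0.07 (edgeR adjusted p = 0.00401). Acadl, the long-chain acyl-CoA dehydrogenase, and Etfdh, which passes the electrons of acyl-CoA dehydrogenases to ubiquinone, each rose by 0.31 ± 0.05, with changes of 0.04 and 0.00 with GFP and called differences of 0.27 and 0.31.

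Of the 18 tested members of the fatty acid oxidation and PPAR target list, 4 rose with ChREBPβ and 1 fell (27.8% called, beside 3.87% of all genes), while 0 rose and 1 (Ppard, -0.28) fell with GFP. The list's median log2 change was 0.0387 with ChREBPβ and -0.018 with GFP, so most members stayed near the median of all genes (0.00303). Ppargc1a, the coactivator PGC-1α, was the member that fell (-0.27), and it was no longer called without replicates a or c at 2 mM (-0.24 and -0.26) or b or c at 11 mM (-0.27 and -0.26). The difference between the glucose effects was called for 6 members, all more positive with ChREBPβ (1.56% of all genes). These were Cpt1a, Acaa2, Acadl, Etfdh, Slc25a20 and Ppard. Slc25a20, the carnitine-acylcarnitine carrier, named after its values were seen, gave 0.21 with ChREBPβ and -0.17 with GFP (difference 0.38, edgeR adjusted p = 0.00162), neither of which reached the fold minimum alone. Without ChREBPβ 2 mM replicate b, 4 differences were called. Pdk4, Angptl4 and Acot1 were too low to be tested.

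**Figure D3:**
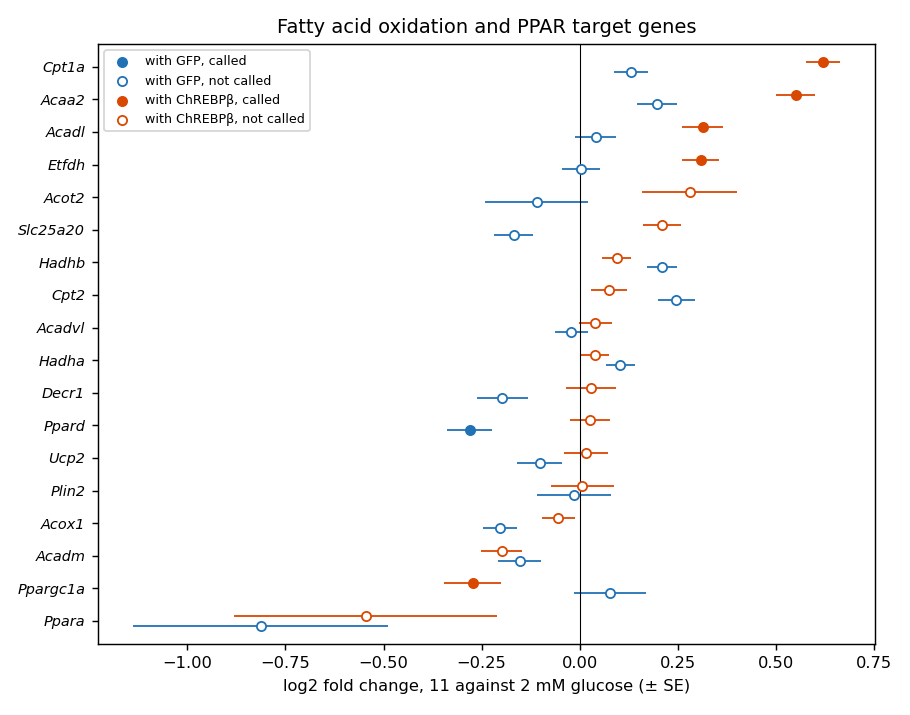
Log2 change from 2 to 11 mM glucose with its standard error for the 18 tested fatty acid oxidation and PPAR target genes, with GFP in blue and ChREBPβ in orange and filled points for called changes. Cpt1a, Acaa2, Acadl and Etfdh stand apart at the top with ChREBPβ, at 0.31 to 0.62.

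Called in ChREBPβ cells and not in GFP cells were 141 genes, of which 22 also had a called difference. The first number was 85 without ChREBPβ 2 mM replicate c. Of the 22, 14 rose and 8 fell with ChREBPβ. The 14 included the above 4 and Eci2 and Cat, of which Eci2 was named after its values were seen. Eci2, an enoyl-CoA isomerase of fat oxidation, rose by 0.40 ± 0.06 (difference 0.35, edgeR adjusted p = 0.0223). Catalase, the peroxide-removing enzyme encoded by Cat, rose by 0.31 ± 0.05 and gave -0.10 ± 0.05 with GFP (difference 0.41, edgeR adjusted p = 0.00098). The 22 became 13 without GFP 11 mM replicate c and between 15 and 24 without any other single library. Lrrtm4, a synaptic adhesion protein, was the 1 gene called in opposite directions, and it is named for that. It stood at 1.5 to 1.80 CPM at 2 mM and 2.10 to 2.76 CPM at 11 mM with ChREBPβ, a log2 change of 0.52 ± 0.16, and changed by -0.46 ± 0.14 with GFP. It averaged under 5 CPM, and the number of genes called in opposite directions ranged from 0 to 2 when single libraries were left out.

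A few established ChREBP targets still rose past the fold minimum. Txnip, which encodes an inhibitor of thioredoxin and of glucose uptake, rose from 449.9, 472 and 448 CPM to 662, 659 and 677 CPM with ChREBPβ, a log2 change of 0.54 ± 0.05 (edgeR adjusted p = 3.67e-07). In GFP cells it went from 26.8, 24.3 and 27.7 CPM to 334, 347 and 370.3 CPM, or 3.74 ± 0.05. Its level at 2 mM with ChREBPβ thus lay above its level at 11 mM with GFP, and the difference between the glucose effects was -3.20 ± 0.07 (edgeR adjusted p = 7.35e-17). Its relative Arrdc4, also an arrestin-domain protein, rose by 0.34 ± 0.04 with ChREBPβ and 0.50 ± 0.04 with GFP, from 179 to 183 CPM up to 227 to 235 CPM in the former. The difference of -0.16 was not called.

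Of 24 tested genes on the ChREBP target list, 4 rose with ChREBPβ, namely Txnip, Gpd1, Arrdc4 and Angptl8. That is 16.7%, beside 0.988% of all genes, while 0 fell and 20 were not called. The list also holds Mlxipl itself, its partner Mlx and Mlxip. With GFP 11 rose and 2 fell (Khk and Mlxipl), where 10.2% and 10% of all genes did. Their median log2 change was 0.104 against 0.534. A difference was called for 9, each more negative with ChREBPβ, as for 4.74% of all genes. Gpd1, the cytosolic glycerol-3-phosphate dehydrogenase, rose by 0.40 ± 0.05 and by 0.95 ± 0.06. Pklr, the pyruvate kinase gene whose promoter holds the classic carbohydrate response element, gave 0.10 ± 0.05 (edgeR adjusted p = 0.221) with ChREBPβ, where it lay at 405 to 426 CPM at 2 mM, and 0.70 ± 0.05 with GFP, where it lay at 126 to 133 CPM. The call for Angptl8 (0.27, edgeR adjusted p = 0.0322) was lost without any replicate of ChREBPβ except a at 11 mM (0.22 to 0.29), and with library totals in place of TMM (0.25). The promoter of Arrdc4 holds 1 copy of CACGTG, the E-box half-site of the carbohydrate response element, in the 300 bases from 250 before to 50 after its start. It is shown because Arrdc4 was the one of the 4 raised targets with no called difference between the backgrounds. The 120 bases are from RefSeq on build GRCr8, with the E-box in capitals.
Arrdc4, chr1:131793536-131793655, minus strand: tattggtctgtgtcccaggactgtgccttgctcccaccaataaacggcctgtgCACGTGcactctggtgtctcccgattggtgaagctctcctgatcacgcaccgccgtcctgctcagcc
CACGTG, which reads the same on both strands, occurred in 9.17% of the 10110 tested genes whose promoter could be matched, in 8.26% of the 109 matched promoters of genes raised with ChREBPβ and in 14.8% of the 304 of genes lowered. A pair of exact CACGTG copies 5 bases apart was found in 0 of the 10110 windows, which says only that these letters are absent there. Carbohydrate response elements with other letters were not searched for, so this count does not say whether such elements are present.

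Of 25 tested genes of glucose uptake and glycolysis, 2 rose with ChREBPβ (8%, beside 0.988% of all genes), namely Slc16a1, a monocarboxylate transporter (0.31), and Pfkfb3, which makes the activator of phosphofructokinase (0.29). With GFP 14 rose and 1 fell (beside 10.2% and 10% of all genes). Differences were called for 9, all more negative (beside 4.74%). Gpi, Gapdh, Eno1 and Pkm, enzymes of the common path, were named after their values were seen. Each was called with GFP, at 0.52 to 0.78. With ChREBPβ they gave 0.17 to 0.22, below the fold minimum, with edgeR adjusted p-values from 0.00615 to 0.0314. The list's median was 0.168 with ChREBPβ, where 13 of the 25 were higher and 1 lower at an unadjusted edgeR p under 0.05. The share of all genes at such an unadjusted p is not given, here or below, so these counts have no background. At least 1100 of the 14669 genes passed it, since so many had an edgeR adjusted p under 0.05.

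Members of other lists rose as well with ChREBPβ, where 0.988% of all genes did. With GFP 10.2% of all genes rose and 10% fell. Of 16 tested p53 targets, 3 rose with ChREBPβ (Cdkn1a, Phlda3 and Ccng1, the last pair at 0.40 and 0.35) and 0 fell (18.8% called), with a list median of 0.227. With GFP 6 rose and 1 fell, and the 3 genes changed by 0.48, 0.51 and 0.39. Of 23 tested hypoxia-response genes, 5 rose (Ddit4, P4ha1, Ankrd37, Pfkfb3 and Egln3) at 0.27 to 0.48 (21.7% called), against 7 with GFP. That count was 3 without ChREBPβ 2 mM replicate a or 11 mM replicates b or c, and 8 without 11 mM replicate a. Ankrd37 (0.25 to 0.31) lost its call without a or c at 2 mM or b or c at 11 mM, and without GFP 11 mM replicate c (0.32). Egln3 (0.24 to 0.26) lost it without a or b at 2 mM or b or c at 11 mM and with library totals (0.25). Egln3, the oxygen-sensing prolyl hydroxylase PHD3, rose by 1.62 with GFP, a called difference of -1.35. Of 28 tested immediate early genes, 3 rose, namely Egr1 (0.42), Nr4a1 (0.36) and Klf2 (0.29), which is 10.7% of the list, and 7 rose and 2 fell with GFP. Egr1 gave 0.06 with GFP, with a difference of 0.36 that was not called (edgeR adjusted p = 0.0617).

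Lowered genes made up most of the residual response, and the leading ones fell about as far as in control cells. Uap1l1, a relative of the UDP-N-acetylglucosamine pyrophosphorylase of the hexosamine pathway, fell from 34.4, 26 and 36.3 CPM to 10.9, 11.5 and 12 CPM with ChREBPβ, a log2 change of -1.49 ± 0.10 (edgeR adjusted p = 2.13e-08). With GFP it fell from 39.7 to 42.9 CPM down to 12.3 to 14.4 CPM (-1.65 ± 0.10). Mertk, a receptor tyrosine kinase for engulfment of dead cells, fell from 23.9, 19.4 and 23.7 CPM to 8.49, 8.79 and 11.0 CPM (-1.24 ± 0.10, edgeR adjusted p = 1.74e-07). Its change with GFP was -1.03 ± 0.09. No library at 11 mM reached the lowest at 2 mM in either gene.

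Enpp2 encodes autotaxin, which makes lysophosphatidic acid. It stood at 39.2, 41.6 and 37.2 CPM at 2 mM and 19.2, 18.2 and 21.3 CPM at 11 mM with ChREBPβ, against 119 to 124 CPM and 56.0 to 57.6 CPM with GFP. The level was thus lower with ChREBPβ at each glucose concentration, and the glucose effect was -1.01 ± 0.06 and -1.10 ± 0.05. Baiap3, a C2-domain protein of dense-core vesicle recycling, showed the same arrangement, with 105 CPM in each of the 3 libraries at 2 mM and 56.0 to 64.5 CPM at 11 mM with ChREBPβ (-0.78 ± 0.05) and -0.92 ± 0.05 with GFP. Muc13, a membrane mucin, changed by -0.73 ± 0.05 and -0.81 ± 0.05. Crhr1, the receptor for corticotropin-releasing hormone, changed by -0.93 ± 0.11 and -1.14 ± 0.09.

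Cfap77, Myo15a, Dmrta1, Tctex1d2, Lynx1, Nbl1, Sdsl, Insrr and Gcat completed the 15 largest decreases at 5 CPM or more, between -0.70 and -0.91. Each of the 15 was also called lower with GFP. Among the 15, a difference was called for Insrr only, an insulin receptor-related kinase, with -0.71 against -1.28 (difference 0.57, edgeR adjusted p = 0.0333). Each of the 15 remained called with every library left out in turn.

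Some of the lowered genes, 20 of the 422, encode lysosomal proteins. A list of lysosomal enzymes, membrane proteins and sorting receptors was written after the values had been seen, so its counts are a description and support nothing. Lysosomes are the acid organelles in which cells break down proteins, glycans and lipids, and their genes share a short E-box element bound by TFEB and its relatives. Of the 62 tested members, 20 fell with ChREBPβ (32.3%, beside 2.88% of all genes) and 0 rose, and 51 had a negative value. The median was -0.164. With GFP 26 fell and 0 rose (beside 10% and 10.2% of all genes), with a median of -0.225, and 0 differences were called. DESeq2 called 19 lower. Leaving out ChREBPβ 2 mM replicate a gave 14.

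Neu1, a lysosomal sialidase, fell from 30, 25.2 and 30.8 CPM to 19.9, 18.9 and 19.2 CPM (-0.56 ± 0.07, edgeR adjusted p = 2.34e-05) with ChREBPβ and by 0.63 on the log2 scale with GFP. Gaa, the acid alpha-glucosidase that degrades glycogen in lysosomes, fell from 478, 457 and 481 CPM to 373, 368 and 359 CPM (-0.37 ± 0.04, edgeR adjusted p = 6.11e-06). Its change with GFP was -0.39 ± 0.04 from 792 to 854 CPM. Mcoln1, the calcium channel of the lysosomal membrane, changed by -0.38 ± 0.05 and -0.37 ± 0.05, and Cln3, a lysosomal membrane protein lost in Batten disease, by -0.32 ± 0.08 and -0.52 ± 0.08.

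**Figure D4:**
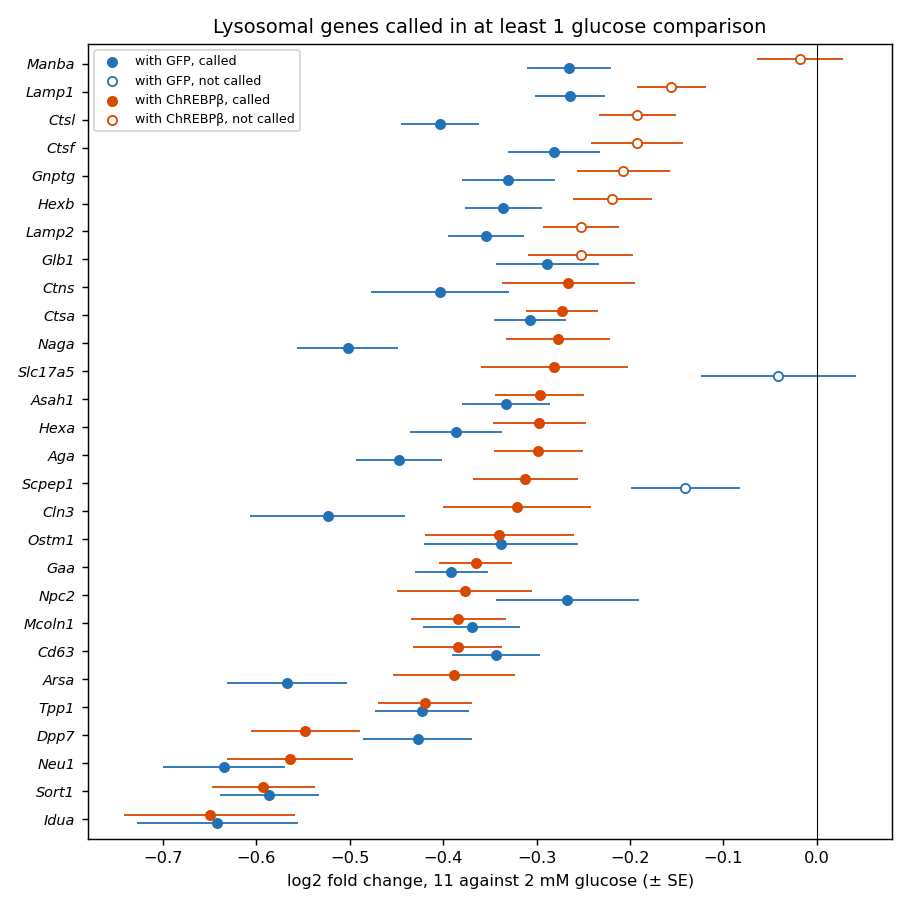
Log2 change from 2 to 11 mM glucose with its standard error for the 28 lysosomal genes called in at least 1 background, with GFP in blue and ChREBPβ in orange and filled points for called changes. Values lie left of zero in both backgrounds, from about -0.02 for Manba to -0.65 for Idua with ChREBPβ. No member was called higher, so this side follows from showing called genes only. Of all 62 tested members, 51 had a negative value with ChREBPβ.

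The iduronidase Idua (-0.65), the sorting receptor Sort1 (-0.59), Neu1 and the protease Dpp7 (-0.55) had the 4 largest called changes with ChREBPβ, and these and the other lysosomal genes were named after their values were seen. Among 18 tested genes of lysosomal nutrient signalling, a list also written after the values had been seen, 3 fell (16.7%, beside 2.88% of all genes). These were Flcn (-0.49), Fnip1 (-0.47) and Rragd (-0.45), which encode partners in the amino acid sensing by Rag GTPases. They changed by -0.69, -0.50 and -0.41 with GFP. Tfeb itself gave -0.03 and Tfe3 gave -0.12, and neither was called. Of 15 vacuolar ATPase genes 0 were called by edgeR or DESeq2 with ChREBPβ, where edgeR called 3.87% of all genes. A list of this size would hold few calls or none at that share, so this 0 is not a result about the list. Of its values 14 were negative (median -0.0988), and 8 had an unadjusted p under 0.05.

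The E-box CACGTG occurred in 14 of the 48 lysosomal promoters that could be matched (29.2%, beside 9.17% of all), and the longer palindrome TCACGTGA, which contains it, in 7 (14.6%, beside 1.65%). Among the 15 matched promoters of lysosomal genes that fell, 5 held CACGTG, namely those of Mcoln1, Cln3, Gaa, Cd63 and Idua. The windows from 100 bases before to 20 after the start are shown for the first 3, since the glucose effects of these genes with both viruses are given above. They are from RefSeq on build GRCr8, with each E-box in capitals. A match in these letters is a description of the window and not evidence of binding.
Mcoln1, chr12:6358158-6358277, plus strand: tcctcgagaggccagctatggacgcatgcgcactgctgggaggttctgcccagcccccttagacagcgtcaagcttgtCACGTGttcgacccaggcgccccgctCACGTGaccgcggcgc
Cln3, chr1:190597910-190598029, minus strand: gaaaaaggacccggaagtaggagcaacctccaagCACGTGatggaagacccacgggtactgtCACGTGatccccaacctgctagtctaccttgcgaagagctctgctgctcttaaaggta
Gaa, chr10:105028255-105028374, plus strand: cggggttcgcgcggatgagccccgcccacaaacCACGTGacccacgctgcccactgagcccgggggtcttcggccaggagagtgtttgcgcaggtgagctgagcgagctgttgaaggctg
Mcoln1 and Cln3 each carry 2 copies and Gaa carries 1 in these windows.

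Some genes of motile cilia and axonemes were also among those that fell. These were listed after the values had been seen too. Of 45 tested members, 10 fell with ChREBPβ and 0 rose (22.2% lower, beside 2.88% of all genes), with a median of -0.183. With GFP 17 fell and 1 rose (beside 10% and 10.2% of all genes), with a median of -0.439. Drc1, a regulator of axonemal dynein, had the largest change, from 3.08, 3.10 and 3.26 CPM to 1.43, 1.53 and 1.61 CPM (-1.05 ± 0.14, edgeR adjusted p = 9.08e-05). Dnah9, an axonemal dynein heavy chain, changed by -0.47 ± 0.07 (edgeR adjusted p = 0.000143) and by -0.62 ± 0.06 with GFP. The count was 5 without ChREBPβ 2 mM replicates a or c or 11 mM replicate b. Drc1 and several other members were read at under 5 CPM.

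Some beta-cell genes fell with glucose in both backgrounds, although most members of the 3 beta-cell lists were not called with ChREBPβ. Of 18 tested identity factors, 4 fell with ChREBPβ, among them Mafa, Nkx6-1 and St18, and 0 rose (22.2% called, beside 2.88% of all genes lower), and the median was -0.143. The 4 calls were kept with every library left out. With GFP 11 fell and 1 rose (beside 10% and 10.2% of all genes), with a median of -0.348. Mafa, an activator of the insulin gene, fell from 53.2, 54.8 and 59.1 CPM to 42.6, 41.6 and 43.5 CPM (-0.39 ± 0.05, edgeR adjusted p = 0.000107), and its change with GFP was -0.50 ± 0.05 from 96.9 to 108 CPM. Nkx6-1, a factor of beta-cell maturity, changed by -0.35 ± 0.06 (log2 fold change ± SE) with ChREBPβ and by -0.53 ± 0.05 with GFP, and the difference of 0.18 was not called (edgeR adjusted p = 0.176). Pdx1, named after its values were seen, gave -0.16 ± 0.04, below the fold minimum, against -0.45 ± 0.04 with GFP (difference 0.28, edgeR adjusted p = 0.00621). The difference was called for 6 identity factors, 5 of them more positive with ChREBPβ. Only 2 of the 5 were called without GFP 2 mM replicate c.

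Among 16 tested hormone and prohormone genes, 3 fell with ChREBPβ (18.8%, beside 2.88% of all genes), namely Scg2, Ins2 and Pcsk2, and 13 were not called. Scg2, the granule protein secretogranin II, fell from 330.0, 316 and 328 CPM to 233, 225 and 241 CPM (-0.48 ± 0.04, edgeR adjusted p = 1.45e-07). Ins1 fell short of the fold minimum with 4224, 4365 and 4338 CPM against 3464, 3832 and 3517 CPM (-0.26 ± 0.05, edgeR adjusted p = 0.00575). It was called with library totals (-0.27) and without ChREBPβ 2 mM replicate a (-0.27) or 11 mM replicate b (-0.30). Ins2 fell from 26, 27.1 and 27.9 CPM to 17.7, 20.5 and 21.3 CPM (-0.45 ± 0.08), and since Ins1 and Ins2 are nearly identical the share of reads between them is uncertain. Of 22 tested genes of stimulus-secretion coupling, 4 fell (18.2%), namely the receptors Glp1r (-0.46), Gipr (-0.33) and Ffar1 (-0.32) and the granule GTPase Rab27a (-0.35). Rab27a (-0.26 to -0.34) lost its call without replicates c at 2 mM or b or c at 11 mM. Glp1r, the target of incretin drugs, fell from 37.6, 38.4 and 42.5 CPM to 29.4, 28.3 and 28.7 CPM with ChREBPβ and by 0.63 on the log2 scale with GFP.

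Most control responses that lost their call and had a called difference were inductions, although some still changed with ChREBPβ below the fold minimum. In all, 2537 genes were called with GFP and not with ChREBPβ. For 1758 of them the difference was not called, so the lost call alone shows no difference between the backgrounds. For 779 genes the effect was called with GFP, not called with ChREBPβ, and called as different. Of these, 618 were raised by glucose with GFP and 161 lowered. Median changes of the 618 were 0.493 with GFP and 0.076 with ChREBPβ, values that the choice of genes in part fixes. In 513 of the 618 (83%, beside 48.6% of all tested genes) the mean level at 2 mM with ChREBPβ already lay above the mean at 11 mM with GFP. In 100 of the 161 it lay below (62.1%, beside 51.4%). The count of 779 ranged from 583 to 896 when single libraries were left out.

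Emp1, a membrane protein with 4 spans linked to epithelial growth, stood at 0.288 to 0.404 CPM at 2 mM and 3.41 to 4.55 CPM at 11 mM with GFP. With ChREBPβ it lay at 16.1, 16 and 16.6 CPM at 2 mM and 15.6, 13.5 and 17.2 CPM at 11 mM, a log2 change of -0.07 ± 0.09. The difference was -3.64 ± 0.25 (edgeR adjusted p = 6.53e-09). Cilp2, a secreted matrix protein, was read at 137, 141 and 154 CPM and then 141, 144 and 143 CPM with ChREBPβ, groups that overlapped, and it rose by 2.99 ± 0.09 with GFP. Prok2 (a secreted prokineticin, 0.06), Ramp1 (a receptor activity-modifying protein, 0.07), Calhm2 (0.22), the hedgehog ligand Ihh (0.24), Cpne9 (0.20) and the phospholipase Pla2g2f (-0.05) gave these changes with ChREBPβ and 2.45 to 3.53 with GFP. Cpne9 thus still rose with ChREBPβ below the fold minimum (edgeR adjusted p = 0.0273). The ChREBPβ glucose groups of Calhm2, Ihh and Cpne9 did not overlap, as in 28.9% of all genes.

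The lowered counterparts were less extreme. Tppp3, a tubulin-binding protein, changed by -0.87 ± 0.11 with GFP and 0.10 ± 0.10 with ChREBPβ (difference 0.97, edgeR adjusted p = 3e-04), and Pdgfra, a growth factor receptor, by -0.80 ± 0.14 and 0.18 ± 0.14 (difference 0.98, edgeR adjusted p = 0.00338). Lrrc56, Col6a6, Kndc1, Trim34, Npr1 and Slc17a9 changed by -0.77 to -0.93 with GFP and -0.08 to -0.32 with ChREBPβ. Among these, the ChREBPβ glucose groups of Lrrc56, Kndc1 and Npr1 did not overlap (edgeR adjusted p = 0.231, 0.103 and 0.0574). The difference for Kndc1 (0.53, edgeR adjusted p = 0.0468) was lost when any of 9 libraries was left out (0.43 to 0.57), all but GFP 2 mM replicate b, GFP 11 mM replicate b and ChREBPβ 2 mM replicate b.

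Of Myc and the lists of ribosome biogenesis, DNA replication and mitosis, many genes rose in GFP cells and none was called with ChREBPβ. With 0.988% of all genes called higher with ChREBPβ, lists of this size would hold few calls or none at the background share. The counts of 0 are therefore not results about these lists, and the differences between the glucose effects are given beside them. Counts at an unadjusted p have no share of all genes beside them and are not results about the lists either. Over all genes, 10.2% rose with GFP and 4.74% had a called difference more negative with ChREBPβ. Myc stood at 114, 108 and 109 CPM at 2 mM and 122, 124 and 124 CPM at 11 mM with ChREBPβ, groups that did not overlap, with a log2 change of 0.16 ± 0.05 (edgeR adjusted p = 0.0422) below the fold minimum. With GFP it rose from 37.0, 38.9 and 42.0 CPM to 87.7, 90.2 and 95.2 CPM, or 1.21 ± 0.05. Of 24 tested genes of ribosome biogenesis and the Myc program, 21 rose with GFP (beside 10.2% of all genes) and 0 were called by edgeR or DESeq2 with ChREBPβ, where 9 had an unadjusted p under 0.05 and the median was 0.0917 against 0.49. The difference was called for 17, all more negative (beside 4.74% of all genes). Nop56, a core protein of box C/D snoRNPs chosen after its values were seen, gave 0.07 ± 0.04 and 0.50 ± 0.04. Of 29 tested DNA replication genes, 11 rose with GFP and 0 were called by edgeR or DESeq2 with ChREBPβ (4 at an unadjusted p under 0.05, median 0.013 against 0.234). The difference was called for 11, or for 7 without GFP 11 mM replicate a. Of 23 tested mitosis genes, 13 rose with GFP and 0 were called by edgeR or DESeq2 with ChREBPβ, but all 23 values with ChREBPβ were positive (median 0.142, against 0.3 with GFP) and 16 had an unadjusted p under 0.05. Differences were called for 2 of them, and for 0 without GFP 11 mM replicate b, ChREBPβ 2 mM replicate a or ChREBPβ 11 mM replicate b.

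**Figure D5:**
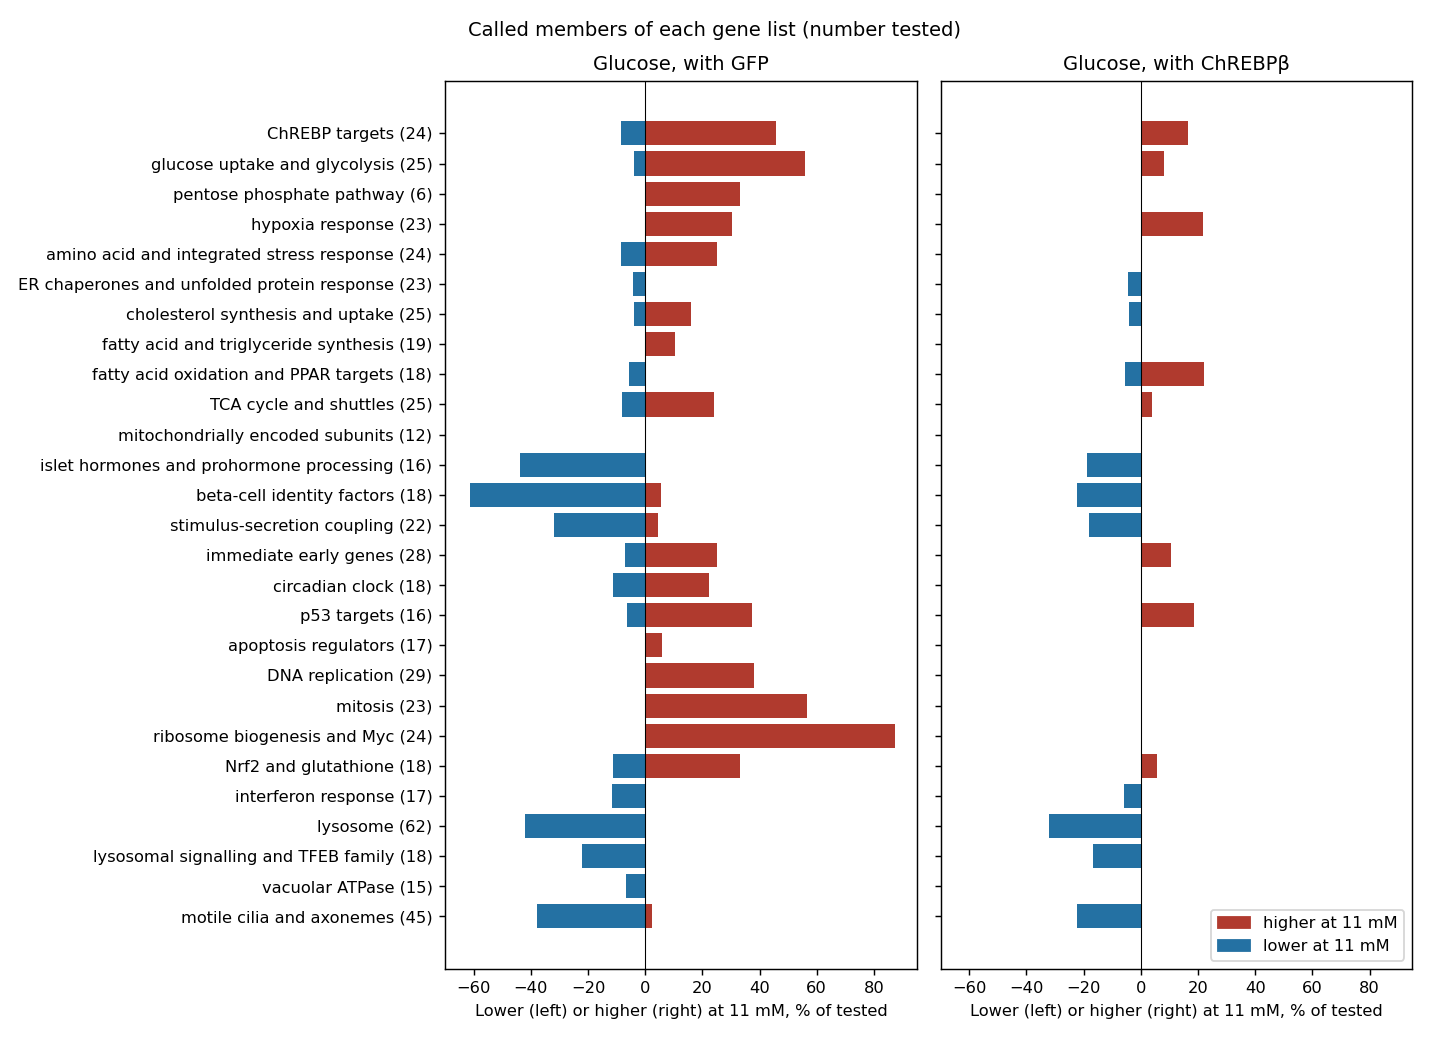
Share of the tested members of each gene list (number in brackets) called higher (red) or lower (blue) at 11 mM glucose, with GFP on the left and with ChREBPβ on the right. Bars show called members only. Their absence with ChREBPβ for ribosome biogenesis, mitosis and DNA replication is not a result about these lists, and all 23 mitosis values were positive there. Bars for beta-cell genes and lysosome remain. The last 4 lists, lysosome among them, were written after the values had been seen.

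The remaining lists held few calls in ChREBPβ cells, where 3.87% of all genes were called. Lists of this size would hold few calls or none at that share, so these counts are not results about the lists. By edgeR, 0 members were called of the pentose phosphate pathway (6 tested, 3 at an unadjusted p under 0.05), the amino acid and integrated stress response (24 and 11), fatty acid and triglyceride synthesis (19 and 7), the circadian clock (18 and 1), apoptosis regulators (17 and 3) and extracellular matrix (10 and 1). DESeq2 called 1 extracellular matrix gene and 0 of the other lists. In this order the lists had 2, 6, 2, 4, 1 and 0 genes raised with GFP (beside 10.2% of all genes). Genes lowered with GFP numbered 0, 2, 0, 2, 0 and 2 (beside 10%). Differences between the glucose effects were called for 2, 4, 1, 6, 1 and 0 (beside 6.31%). Of the 6 for the circadian clock, 2 were more positive and 4 more negative with ChREBPβ. Single calls were Sdf2l1, an ER-resident chaperone partner (-0.63), among 23 ER chaperone genes, Tm7sf2, a sterol reductase (-0.34), among 25 cholesterol genes, Cat among 18 Nrf2 and glutathione genes and Gpd1 among 25 TCA cycle and shuttle genes. For the 4 cholesterol genes raised with GFP, all 4 values with ChREBPβ lay between -0.25 and 0.02.

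Of the 12 tested mitochondrially encoded subunits on the list, 11 had negative values with ChREBPβ (median -0.224) and 0 were called by edgeR or DESeq2 (4 at an unadjusted p under 0.05), with summed levels of 12400 to 16500 CPM at 11 mM and 16200 to 19500 CPM at 2 mM, ranges that overlap slightly. The number called lower was 3 without GFP 2 mM replicate b and 0 or 1 without any other library. A difference between the glucose effects was called for 0 members (4.74% of all genes had one more negative with ChREBPβ). Without GFP 2 mM replicate b it was called for 11, all more negative with ChREBPβ, and for 0 without any other library. The difference for this list thus turned on 1 control library. Mt-cox3, a further mitochondrially encoded subunit whose row the list did not match, named after its values were seen, fell from 3127, 3331 and 2920.1 CPM to 2350.1, 2119.6 and 1865 CPM (-0.57 ± 0.11, edgeR adjusted p = 0.00278). The spread among replicates of these transcripts was large, and their part in other results was not tested.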

How the data were processed

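RNA from 12 samples of INS-1 832/13 cells was amplified and sequenced as paired reads. The deposited table holds whole-number read counts per gene, which the authors made from their reads. Per the labels' processing notes, genome build Rnor_6.0 and edgeR were used, while the aligner and counter are not given in the sources used here. The table also holds mean signal columns per group by the authors, equal to the means of the counts in all 28728 rows (tolerance 0.001), which entered no test. The 1 row without a gene name (0.0043% to 0.00601% of a library) was left out, and 26 names had been turned into dates.

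Counts were kept by filterByExpr, scaled by TMM (factors 0.958 to 1.06) and fitted over all 12 libraries with the quasi-likelihood test of edgeR 4.0.16 in R 4.3.3. P-values were adjusted by Benjamini-Hochberg over 14669 genes, and a gene was called at an adjusted p under 0.05 and at least 1.2-fold. Contrasts were 11 against 2 mM within each virus and the difference between both. Standard errors (SE) are the log2 change divided by the square root of its F statistic. The procedure was tested on simulated data. Alternatives used DESeq2 1.42.0, other scalings, filters and fold rules, the replicate letter as a block and each library left out in turn.

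Named genes were, in each direction, the 15 largest changes with ChREBPβ at 5 CPM or more without overlap between groups. They were also the 8 largest shared with GFP and the 8 largest GFP changes that lost their call with ChREBPβ and had a called difference. Fixed genes of interest and up to 5 called members per list were added. Members and lists were chosen with earlier results of these data known. Pairs of libraries of 1 group differed by more than sampling noise (chi-square per degree of freedom 3.06 to 16.6). Promoters of 10110 genes came from RefSeq on GRCr8, which is not the build of the counts. Values for some genes are not reported here.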

Additional observations from a re-analysis of the deposited data

Results flagged for a closer look

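The results below were picked out because the glucose effect with ChREBPβ differed from that with GFP by the edgeR test of the difference itself, which called 925 genes. Values are the log2 change with ChREBPβ minus that with GFP, with edgeR adjusted p-values between 7.35e-17 for Txnip and 0.0494 for Rab27a, and groups held 3 libraries each.

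The glucose effect was more negative with ChREBPβ for a set of named genes that glucose raised with GFP. The larger differences among these were those of Emp1 (-3.64), Prok2 (-3.47), Ramp1 (-3.44), Calhm2 (-3.21), Txnip (-3.20), Cilp2 (-3.01), Ihh (-2.81), Cpne9 (-2.66) and Pla2g2f (-2.50). Smaller differences of this sign were found for Egln3 (-1.35), Slc16a1 (-1.17), Myc (-1.05), Pfkfb3 (-1), Angptl8 (-0.76), Arl4d (-0.75), Pklr (-0.61), Klf2 (-0.55), Gpd1 (-0.55) and Mid1 (-0.54).

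The effect was more positive with ChREBPβ for genes of fatty acid oxidation and peroxide removal, namely Cpt1a (0.49), Cat (0.41), Acaa2 (0.35), Etfdh (0.31) and Acadl (0.27). It was also more positive for genes that glucose lowered with GFP, namely Pdgfra (0.98), Tppp3 (0.97), Col6a6 (0.80), Trim34 (0.71), Lrrc56 (0.68), Slc17a9 (0.62), Insrr (0.57), Kndc1 (0.53), Npr1 (0.51) and Rab27a (0.42).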

How the results depend on the processing

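The minimum fold decided how many genes were called. A test against 1.2-fold itself (glmTreat) called 85 genes with ChREBPβ (10 higher, 75 lower), 1113 with GFP, 72 in both and 194 differences. A 2-fold minimum gave 28 (7 and 21), 294, 16 and 108, and no minimum gave 1100 (399 and 701), 5030 and 900. Leaving out single libraries gave 392 to 604 calls with ChREBPβ, of which 93 to 159 were higher and 299 to 445 lower, 2643 to 2992 with GFP, 307 to 438 in both and 669 to 1078 differences. DESeq2 (616), RLE (552), upper quartile factors (561), library totals (613), no filter on low genes (666), a floor of 10 counts per library (556) and the ChREBPβ libraries alone (647) stayed within 1.5 times the 567, and between 535 and 557 of those 567 genes were shared. Scalings moved the median of all genes to between -0.0136 and 0.0116.

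Same-letter libraries had correlations of deviations of 0.0202, 0.014 and 0.0241 with ChREBPβ and -0.0257, -0.0401 and 0.0522 with GFP. These were small, although each ChREBPβ library correlated best with its own letter. Whether the letters pair the samples is not settled by such values. The fit with the letter as a block called 547 genes with ChREBPβ, 537 of them among the 567. Over all alternatives, the changes of named genes kept sign and side of the threshold in 1418 values, lost the call in 140, gained it in 5 and turned sign in 1. That 1 is ChREBPb, which ranged from -0.12 to 0.02 when single libraries were left out and was called in none. Differences of named genes kept theirs in 324 values and lost the call in 22. Depth limited genes of a few CPM, such as Lrrtm4 and Drc1, whose standard errors were 0.16 and 0.14 beside a median of 0.0717.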
